A study of Mus musculus with 28 samples.

Results

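Among the distal enhancers that Brg1 occupied in day 4 mesodermal cultures, 776 still carried a called region of H3K27ac after *Brg1* was deleted, and these kept Brg1-bound enhancers are described here. They were chosen by measured values, in steps. Regions of the control H3K27ac lists that shared at least 1 bp between replicates were merged, and 27332 merged regions were present in both control replicates. Of these, 13914 (50.9%) lay more than 2.5 kb from any transcription start site (TSS) of the mm9 genome build and are called distal enhancers. A Brg1-bound region, one enriched for FLAG in at least 2 of 3 replicates, overlapped 1058 (7.60%) of them, and 776 of the 1058 were overlapped by a region of at least 1 of the 2 H3K27ac lists from deleted cells. The other 282 were called in neither and are named lost bound enhancers. A further set, 8538 kept distal enhancers with no Brg1-bound region, serves as the kept unbound comparison.

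The study asked how the chromatin remodeller Brg1 acts while mouse embryonic stem cells become mesoderm. Embryoid bodies were grown until day 2, dissociated, and cultured for 40 h with VEGF, Activin A and BMP4 until day 4. The cells are labelled *Brg1*f/f;*Actin-CreER*. Deleted cultures received 200 nM 4-hydroxytamoxifen (4-OHT) dissolved in tetrahydrofuran (THF) on day 2, and control cultures received THF alone, so floxed alleles and the CreER transgene were present in both groups. The FLAG samples carry the same genotype label, while the study's text describes embryonic stem cells with a FLAG tag on Brg1, and they have no 4-OHT counterpart. *Actin-CreER* is a broadly active driver, so deletion was not restricted to a cell type. The cultures were sequenced in bulk, so fewer cells with a mark and less of the mark per cell cannot be told apart.

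Brg1 is an ATPase of the BAF (SWI/SNF) complexes, which move or evict nucleosomes and so alter access to DNA. Acetylation of histone H3 at lysine 27 (H3K27ac) marks active enhancers and promoters. Trimethylation of the same residue (H3K27me3) is placed by Polycomb repressive complex 2 (PRC2), of which Suz12 is a core subunit, and marks silenced developmental genes. Because a lysine carries either acetylation or methylation, both marks over the same region come from different histone tails, alleles or cells.

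Each replicate is represented by a list of enriched regions without score or read count, so sequencing depth is unknown, and only list length and total bases covered can be given in its place. The FLAG lists held 8021, 8257 and 192 regions in replicates 1, 2 and 3. FLAG replicate 3 is thus far shorter than the others, and Brg1 occupancy rests mostly on replicates 1 and 2. For H3K27ac, THF replicates 1 and 2 held 37590 and 41062 regions (28.0 and 30.8 Mb), and 4-OHT replicates 1 and 2 held 36000 and 32161 (28.5 and 26.1 Mb). The H3K27me3 lists, in triplicate, held 16959, 8798 and 8977 regions in THF (8.38, 11.0 and 10.0 Mb) and 10394, 7872 and 6787 in 4-OHT (4.74, 8.99 and 7.62 Mb). For Suz12, in duplicate, they held 2951 and 2913 regions in THF (3.68 and 4.07 Mb) and 3654 and 4016 in 4-OHT (3.58 and 4.77 Mb). The labels describe these as biological replicates. The Suz12 lists thus held more regions in both 4-OHT replicates, and the H3K27me3 lists held fewer in 4-OHT for each replicate number, while the ranges of the groups overlap for H3K27me3 regions and for the Mb of both readouts.

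The share of Brg1-bound distal enhancers that was kept was 73.3% (776 of 1058, exact 95% binomial interval 70.6 to 76.0%, which here and below covers counting error only). Over all 13914 distal enhancers the share was 66.9%, and over the 12856 without Brg1 it was 66.4%. In 4-OHT replicate 1 alone 681 of the 1058 bound enhancers were called (64.4%), and in replicate 2 alone 751 (71.0%). The 4-OHT calls selected the members, so these shares describe the choice and nothing is read from them. Both 4-OHT replicates called 656 members, replicate 1 alone called 25, and replicate 2 alone called 95. Of the bound enhancers called in replicate 1, replicate 2 also called 96.3%, and of those called in replicate 2, replicate 1 also called 87.4%. Membership therefore rests on both 4-OHT replicates for most of the set. Without FLAG replicate 1 there were 77 members, and without FLAG replicate 2 there were 65. Both remaining FLAG lists were then required, among them the short list of replicate 3, while either 4-OHT list is enough. These counts therefore do not compare the weight of FLAG and 4-OHT replicates.

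The kept bound enhancers were wide. Their median width was 2075 bp, with quartiles of 1425 and 2881 bp and a range from 100 to 10400 bp. Lost bound enhancers had a median width of 700 bp, kept unbound enhancers 825 bp and all distal enhancers 700 bp. Among all distal enhancers the upper quartile of width was 1350 bp, and 599 members (77.2%) were wider than that. Since the 4-OHT calls selected the members, the share kept is given by width as a description. From the narrowest to the widest quartile group of distal enhancers, 21.9%, 33.8%, 58.8% and 91.3% of the bound enhancers were kept, beside 51.5%, 59.4%, 71.8% and 87.9% of the unbound. Nothing is read from these shares. A wide region has more bases that a 4-OHT region can overlap, and the part of this in the kept share was not tested. The merged regions add up to 1.79 Mb in members and 0.249 Mb in lost bound enhancers.

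The widest member lay in an intron of *Rbpms*, which encodes an RNA-binding protein, at chr8:35022476-35032875. It held 4 Brg1-bound regions, and H3K27ac covered 10400 and 9750 of its 10400 bp in THF replicates 1 and 2 and 10400 and 10125 bp in 4-OHT replicates 1 and 2. This enhancer was covered nearly end to end in every sample. Next in width were enhancers in introns of *Smad1*, an effector of BMP signalling (8675 bp), of *Unc5b*, a netrin receptor (8225 bp), and of *Wnt3*, a Wnt ligand (8200 bp, nearest TSS that of *Nsf*), then an intergenic enhancer near *Rab12* (7325 bp). For the *Unc5b* enhancer at chr10:60274001-60282225 the covered length was 7850 and 8225 bp in THF and 7950 and 7975 bp in 4-OHT. For the *Rab12* enhancer it was 7300 and 6900 bp in THF and 7325 bp in both 4-OHT replicates. The *Wnt3* intron differed from these, as H3K27ac covered 5925 and 8200 bp in THF and 2500 and 3925 bp in 4-OHT.

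Brg1 lay well inside the kept enhancers. Where an enhancer held several Brg1-bound regions, the widest was taken for width and position. The Brg1-bound region had a median width of 325 bp (quartiles 225 and 500 bp), against 275 bp in lost bound enhancers. It was wholly inside the enhancer in 726 members (93.6%), against 192 of 282 lost bound enhancers (68.1%). Its centre fell within the central 50% of the enhancer in 593 members (76.4%) and in 180 lost bound enhancers (63.8%). Brg1 thus sat nearer the middle in members, although a wider enhancer also leaves more room around a narrow region. At least 2 Brg1-bound regions were found in 142 members (18.3%, interval 15.6 to 21.2%) and in 8 lost bound enhancers (2.84%, interval 1.23 to 5.51%). All 3 FLAG replicates called Brg1 in 68 members (8.76%) and in 7 lost bound enhancers (2.48%), while replicates 1 and 2 alone did so in 697 members. Of all 2390 Brg1-bound regions in the genome, 937 (39.2%) lay in a member.

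Of the members with Brg1 in all 3 FLAG replicates, the widest are named here. By width, the first 10 lay near *Smad1*, *Rab12*, *Fam49a*, *Eomes*, *Lrrfip2*, *Sall4*, *Dennd2c*, *Bcar3*, *Efnb2* and *Clybl*. The enhancer near *Eomes*, a T-box factor required for mesoderm and endoderm, spanned chr9:118392726-118398900, and H3K27ac covered 4775 and 6175 bp of it in THF and 4600 and 5650 bp in 4-OHT. The enhancer 71.7 kb upstream of *Sall4*, a zinc-finger factor of pluripotent and early embryonic cells, had the widest Brg1-bound region of the members, 2475 bp, and H3K27ac covered 5875 and 5950 bp in THF and 4500 and 5675 bp in 4-OHT. The range of the THF replicates thus overlapped that of 4-OHT for *Eomes* and not for *Sall4*. The enhancer 150.2 kb from *Efnb2*, which encodes the ephrin-B2 ligand, was covered over 4625 and 4975 bp in THF and 2475 and 3300 bp in 4-OHT.

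Being kept did not mean that the same length stayed covered. The median length of a member covered by H3K27ac was 1700 and 2050 bp in THF replicates 1 and 2, and 800 and 1150 bp in 4-OHT replicates 1 and 2. On average the lists covered 79.2% and 98.0% of a member in THF and 45.3% and 56.8% in 4-OHT. Both 4-OHT samples are below both THF samples, but this is the contrast that the rule used, and control regions set the edges within which length was counted. For each member, the log2 ratio of mean covered length in 4-OHT over THF, with 25 bp added to each, had a median of -0.75 (n = 776). By replicate number the medians were -0.79 and -0.67 (SD 0.08, n = 2). In kept unbound enhancers, measured the same way, the median was -0.18. Pairing the other way round, 4-OHT replicate 2 against THF replicate 1 gave -0.35 and 4-OHT replicate 1 against THF replicate 2 gave -1.16. Within a group the medians were 0.25 for THF replicate 2 over 1 and 0.32 for 4-OHT replicate 2 over 1, so replicates of a group differed by nearly as much as the smallest gap between the groups.

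The ratio was below 0 in 721 members (92.9%), beside 60.8% of kept unbound and 75.5% of all distal enhancers. It was at or below -1 in 322 members (41.5%), beside 26.9% and 51.9%, where the set of all distal enhancers includes those called in no 4-OHT replicate. Its quartiles were -1.69 and -0.25 and its range ran from -5.81 to 0.29, so members reach from short remnants of the mark to coverage as in control cells. Members called in both 4-OHT replicates had a median ratio of -0.57 and a median width of 2238 bp. The 120 called in 1 replicate had a median ratio of -2.90 and a median width of 1288 bp. By these medians the 120 were narrower than the members called in both. Having no covered length in the other 4-OHT replicate is what defines them, so nothing is read from their lower ratio. The choice of either replicate admits them. The mark was also split within members, as at least 2 separate regions were listed in 199 and 26 members in THF (25.6% and 3.35%) and in 207 and 229 in 4-OHT (26.7% and 29.5%). Over all distal enhancers, which are narrower, the shares were 10.8% and 4.64% in THF and 6.59% and 8.57% in 4-OHT. THF replicate 1 lies close to the 4-OHT samples here and THF replicate 2 does not. A 4-OHT region reached past the control edges in 90 and 112 members (11.6% and 14.4%), beside 50.0% and 40.3% of kept unbound enhancers.

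H3K27ac covered members more fully at Brg1 than around it. Of the bases within Brg1-bound regions of members, H3K27ac covered 95.4% and 99.5% in THF and 67.6% and 79.3% in 4-OHT. Of the other bases of the same enhancers, 78.9% and 98.3% were covered in THF and 48.0% and 58.6% in 4-OHT. In each of the 4 samples the Brg1-bound bases were covered more fully than the rest of the enhancer, also before deletion. Edges of a merged region can lie in 1 control list alone, and Brg1 lay near the middle of most members. The part of this position in the order was not tested, and the same H3K27ac lists chose the members. Lost bound enhancers had the same order in THF, with 70.5% and 99.8% of Brg1-bound bases and 48.2% and 98.7% of other bases covered. The widest Brg1-bound region itself was overlapped by H3K27ac in 772 and 775 members in THF and in 610 and 690 members in 4-OHT. In 722 members (93.0%) at least 1 of the 4-OHT lists overlapped it. The remaining members were kept by another part of the enhancer, either a flank or a further Brg1-bound region.

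The extremes among the members called in both 4-OHT replicates show this range. The lowest ratio belonged to an enhancer in an intron of *Igsf3*, an immunoglobulin superfamily gene, at chr3:101198076-101203425, where H3K27ac covered 4200 and 5225 bp in THF and 100 and 75 bp in 4-OHT (log2 ratio -5.40). Also among the 5 lowest were enhancers in *Rora*, a nuclear receptor gene (-4.41), near *Defb15*, a defensin gene (-4.29), and in *Adamts9*, a metalloproteinase gene (-3.96). In the *Rora* enhancer at chr9:69148626-69151400 the covered length was 1950 and 2775 bp in THF and 25 and 150 bp in 4-OHT. These enhancers count as kept through short remnants. At the other end stood enhancers near *Tsc22d2* (0.29), *Cdkn1b*, a cell cycle inhibitor gene (0.26), *Shroom3*, an actin regulator gene (0.26), *Skap2* (0.17) and *Sp6* (0.14). For *Tsc22d2* the covered length was 1675 and 875 bp in THF and 1625 and 1500 bp in 4-OHT, so the higher ratio comes with a short call in THF replicate 2. The same holds for *Cdkn1b*, with 750 and 450 bp in THF and 725 bp in both 4-OHT replicates. Length was counted within control edges, and at *Tsc22d2*, *Shroom3*, *Skap2* and *Sp6* THF replicate 1 covered the whole enhancer. No 4-OHT sample could exceed it there, so nothing is read from this. At *Cdkn1b* neither 4-OHT sample exceeded the higher THF sample.

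The rule has 3 limits, and the regions next to them are given once. Just inside the TSS distance lay an enhancer near *Slc25a17* (2520 bp from the nearest TSS) and another near *Cdh3* (2541 bp). Just outside lay regions near *Cstad* (2425 bp) and *Mesp1* (2452 bp). The latter, at chr7:86941126-86945100, is otherwise like a member, as H3K27ac covered 3625 and 3975 bp in THF and 2450 and 3075 bp in 4-OHT. The smallest overlap with a Brg1-bound region among members was 50 bp, near *Ube2ql1* and *1810030N24Rik*. Kept enhancers just outside had a gap of 0 bp near *Tdrd3* and of 50 bp near *Nkain1*. The smallest overlap with a 4-OHT region was 25 bp, near *Gm5069* and *Foxa1*. Lost bound enhancers just outside had a gap of 275 bp to the closest 4-OHT region, near *Gfpt2* and *Rnd2*. Region edges lie on a grid of 25 bp, so the smallest overlaps among members span 1 or 2 of its steps.

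Each member was assigned to the protein-coding gene with the nearest TSS, which need not be the gene it regulates. This gave 631 genes, 2.82% of 22367, of which 118 had at least 2 members and 24 at least 3. Most members were found near *Nsf*, *Tgif1* and *Gm973* (4 each), then near *Eomes* and *Bcar3* (3 each, the first of the genes with 3 when ordered by their widest member). *Nsf* encodes a membrane fusion ATPase, but 2 of its 4 members lay in introns of the neighbouring *Wnt3*, a ligand required for primitive streak formation. The 4 members of *Gm973* and the 2 of *Fzd7*, a Wnt receptor gene, lay together between chr1:59465351 and 59650600. Nearest-gene names thus gave members in *Wnt3* introns to *Nsf*, and split the cluster of *Gm973* and *Fzd7*.

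The *Tgif1* cluster was covered alike in all samples. *Tgif1* encodes a homeodomain repressor that restrains Nodal and retinoic acid signalling, and its members lay 10.4, 73.8, 97.3 and 108 kb downstream of its TSS, 3 of them in introns of *Dlgap1*. The widest, at chr17:71095026-71101775, was covered over 6625 and 6575 bp in THF and 6575 and 6525 bp in 4-OHT. The 4 log2 ratios lay between -0.05 and 0.02. At *Nsf* and *Wnt3* they lay between -3.55 and -0.81, with the lowest at chr11:103701826-103703475, where 1525 and 1650 bp were covered in THF and 25 and 200 bp in 4-OHT. For *Bcar3*, which encodes an adaptor of integrin signalling, they were -0.22, -3.64 and -1.10. Clusters near the same gene therefore ranged from coverage as in control cells to short remnants.

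Regulators of the primitive streak and early mesoderm were the list with the largest share of genes near members. Of its 25 genes, 9 were nearest to a member (36.0%, beside 2.82% of all protein-coding genes), with 13 members between them, among them *Eomes*, *Lhx1*, *Foxc1*, *Tbx6*, *Sp5*, *T*, *Gsc* and *Mesp1*. The same list had 13 genes nearest to a kept unbound enhancer and 3 nearest to a lost bound enhancer, beside 4581 and 255 of all 22367 genes, and these counts were not tested. Besides the enhancer downstream of *Eomes* described above, members lay 88.0 and 56.6 kb upstream of it. The nearer of these, at chr9:118329576-118331975, was covered over 2000 and 2400 bp in THF and 225 and 1500 bp in 4-OHT. The replicates after deletion thus differed widely at this site. Near *Lhx1*, a LIM homeobox gene of the anterior streak and node, members 68.1 and 79.4 kb upstream had log2 ratios of -0.70 and -0.64. The former was covered over 3675 and 3950 bp in THF and 2200 and 2475 bp in 4-OHT.

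Near *Foxc1*, a forkhead gene of paraxial mesoderm, 2 members lay side by side in an intron of *Gmds* and shared a Brg1-bound region, chr13:32066501-32067275, so they are not separate binding events. H3K27ac covered 175 and 575 bp of the first in THF and 375 and 400 bp in 4-OHT, and 500 and 275 bp of the other in THF and 0 and 150 bp in 4-OHT. These narrow regions overlap between groups in the first case and not in the other. *Mesp1*, a basic helix-loop-helix gene of cardiac progenitors, had a member 3.94 kb downstream of its TSS, chr7:86934451-86935025, with 475 and 575 bp in THF and 375 and 500 bp in 4-OHT. There the ranges of the groups overlapped.

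Of 15 cardiac regulators, 4 were nearest to members (26.7%): *Gata4*, *Gata6*, *Isl1* and *Myocd*. *Gata4*, a zinc-finger gene of heart and endoderm, had 3 members and no other distal enhancer of the control lists. Its intronic enhancer at chr14:63857726-63860800 was covered over 2350 and 3075 bp in THF and 1200 and 2250 bp in 4-OHT. The enhancer 34.5 kb upstream had 1550 and 1750 bp in THF and 500 and 850 bp in 4-OHT, and that 67.1 kb upstream had 675 and 1050 bp in THF and 0 and 225 bp in 4-OHT. All 3 *Gata4* enhancers were thus shorter in both 4-OHT samples than in both THF samples. The member 214 kb upstream of *Isl1*, a LIM homeobox gene of heart progenitors, was by contrast covered alike, with 1850 and 2050 bp in THF and 1825 and 1975 bp in 4-OHT. The members near *Gata6*, a relative of *Gata4* (log2 ratio -0.97), and *Myocd*, a coactivator of muscle genes (-2.21), had less coverage in 4-OHT. Among 16 blood and endothelial regulators 3 had members (18.8%): *Ets1* and *Runx1* with 2 each, and *Kit*, which encodes the stem cell factor receptor. The 2 intronic enhancers of *Ets1* differed, the first with 2300 and 2275 bp in THF and 2075 and 2125 bp in 4-OHT, the other with 1925 and 2600 bp in THF and 0 and 1125 bp in 4-OHT.

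Of 27 genes of the Wnt pathway, 8 had members (29.6%), and 18 were nearest to a kept unbound enhancer. They span ligands (*Wnt5a*, *Wnt8a*), a receptor (*Fzd7*), a secreted antagonist (*Frzb*), the coactivator β-catenin (*Ctnnb1*), its DNA-binding partner *Lef1*, and the pathway targets *Axin2* and *Sp5*. The *Wnt5a* member, 129 kb upstream, was covered over 4650 and 5325 bp in THF and 3950 and 4325 bp in 4-OHT. The wider *Fzd7* member, 10.8 kb upstream at chr1:59525576-59530800, held 4 Brg1-bound regions and was covered over 4200 and 5225 bp in THF and 3575 and 4050 bp in 4-OHT. Both were shorter in each 4-OHT sample than in each THF sample. *Axin2*, a feedback inhibitor, had 3400 and 3975 bp in THF and 2500 and 2775 bp in 4-OHT. *Sp5*, a zinc-finger repressor, had 2850 and 3475 bp in THF and 2250 and 2875 bp in 4-OHT. Coverage at these members of *Wnt5a*, *Fzd7*, *Axin2* and *Sp5* was thus shorter on average in 4-OHT, and at *Sp5* the groups overlapped by 1 sample. They also overlapped at the other *Fzd7* member, with 2225 and 2475 bp in THF and 1725 and 2325 bp in 4-OHT. Lengths at the remaining Wnt genes are not given, and the list was not tested as a group.

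In the Nodal and BMP pathways 7 of 31 genes had a member (22.6%). The effectors *Smad1* and *Smad5*, the ligand *Nodal*, its antagonist *Lefty2*, the receptor *Acvr2a*, the pseudoreceptor *Bambi* and the target *Msx1* had 1 each. The *Smad1* enhancer, chr8:81903526-81912200, was covered over 8175 and 8675 bp in THF and 7125 and 8600 bp in 4-OHT. *Lefty2* had 2700 and 3050 bp in THF and 1550 and 2325 bp in 4-OHT at an enhancer 9.34 kb upstream. The groups overlapped at *Smad1* and not at *Lefty2*. The member nearest to *Acvr2a*, 389 kb away in an intron of *Gm13481*, had 2125 and 2975 bp in THF and 150 and 250 bp in 4-OHT. The *Bambi* member had 1150 and 2350 bp in THF and 550 and 1375 bp in 4-OHT. Within the same pathway, coverage after deletion thus ran from nearly whole at *Smad1* to a remnant at *Acvr2a*.

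Of 18 genes of the FGF pathway 6 had members (33.3%): the ligands *Fgf10* and *Fgf8*, the target *Etv5* and the inhibitors *Spry2*, *Spry4* and *Spred2*. The 3 members of *Fgf10* lay next to each other in an intron of it, between chr13:119546276 and 119550875. The first was covered over 1375 and 1525 bp in THF and 950 and 1300 bp in 4-OHT, the middle over 825 and 975 bp in THF and 175 and 650 bp in 4-OHT, and the last over 925 and 1525 bp in THF and 600 and 1150 bp in 4-OHT. The ranges of the groups overlapped in the last and not in the first and middle. At *Spry2*, H3K27ac covered 4100 and 4000 bp in THF and 4100 bp in both 4-OHT replicates. *Fgf8* had 6200 and 6525 bp in THF and 5600 and 6075 bp in 4-OHT, where each 4-OHT sample lay below each THF sample. *Spred2* had 3250 and 4075 bp in THF and 2200 and 2850 bp in 4-OHT. Coverage in 4-OHT thus matched the control at *Spry2* alone among these named enhancers.

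The Notch list had 2 of 15 genes near members (13.3%), the receptors *Notch1* and *Notch2*. The intronic *Notch1* member was covered over 2450 and 3475 bp in THF and 725 and 950 bp in 4-OHT. That of *Notch2* had 1275 and 1050 bp in THF and 1225 and 900 bp in 4-OHT, so the groups overlapped. In the retinoic acid pathway 1 of 14 genes (7.14%) had members, *Cyp26a1*, which encodes the enzyme that degrades retinoic acid. Its members lay 20.8 and 116 kb downstream. The nearer was covered over 1025 and 1225 bp in THF and 600 and 1100 bp in 4-OHT, and the farther over 1475 and 1950 bp in THF and 0 and 700 bp in 4-OHT.

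Genes of the transition to mesenchyme, matrix and migration had members at 6 of 25 (24.0%): *Has2*, *Cdh2*, *Epha4*, *Aplnr*, *Zeb2* and *Cxcr4*. *Has2* encodes a hyaluronan synthase, and its 2 members lay 67.2 and 8.89 kb downstream of its TSS. The former was covered over 1550 and 2125 bp in THF and 975 and 1200 bp in 4-OHT, and the latter over 1200 and 1650 bp in THF and 475 and 800 bp in 4-OHT. In both, each 4-OHT sample lay below each THF sample. At *Aplnr*, the apelin receptor gene, 3425 and 3900 bp were covered in THF and 1950 and 2800 bp in 4-OHT. At *Epha4*, an ephrin receptor gene, the lengths were 2600 and 3825 bp in THF and 1625 and 800 bp in 4-OHT. At *Cdh2*, the N-cadherin gene, they were 6050 and 7225 bp in THF and 2525 and 5825 bp in 4-OHT.

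Lists of other cell identities and of chromatin enzymes also had genes near members. Pluripotency factors had 2 of 19 (10.5%; *Sall4*, *Prdm14*), endoderm markers 3 of 18 (16.7%; *Gata4*, *Gata6*, *Foxa1*) and neural ectoderm markers 3 of 16 (18.8%; *Otx2*, *Irx3*, *Pax7*). BAF subunits had 1 of 25 (4.00%; *Smarce1*), and PRC2 and H3K27 enzymes 2 of 18 (11.1%; *Jarid2*, a PRC2 cofactor, and *Kdm6b*, an H3K27 demethylase). Each list also had more genes nearest to kept unbound enhancers, from 4 for neural ectoderm to 13 for pluripotency, and no share was tested against the 2.82% of all genes. *Prdm14*, a germ cell and pluripotency regulator, is a case where coverage in 4-OHT was not shorter, with 600 and 1125 bp in THF and 775 and 1125 bp in 4-OHT. The members near *Foxa1* (375 and 600 bp in THF, 0 and 25 bp in 4-OHT) and *Pax7* (1175 and 1375 bp in THF, 0 and 200 bp in 4-OHT) were close to being lost. Of *Kdr*, *Mesp1*, *Cyp26a1*, *Has2* and *Sulf1*, named by rule, *Kdr* and *Sulf1* were nearest to no member. An intron of *Sulf1* nonetheless held a member, chr1:12824101-12827150, assigned to *Slco5a1* by its TSS and covered over 2725 and 2950 bp in THF and 2150 and 2700 bp in 4-OHT.

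Promoter H3K27ac of the lists gives a view of the cultures themselves. It was called in both THF replicates for 17 of 25 early mesoderm regulators and in both 4-OHT replicates for 16. For cardiac regulators the counts were 4 and 6 of 15, for blood and endothelial regulators 5 and 4 of 16. Early mesoderm genes were thus mostly acetylated, and genes of later mesoderm derivatives mostly not, in either group. Among markers of other cells, promoters were acetylated for 13 and 14 of 19 pluripotency factors, 9 and 8 of 18 endoderm markers and 5 of 16 neural ectoderm markers in both groups, beside 10649 and 10757 of all 22367 genes. The part of such cells in the values of members was not tested.

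Polycomb marks were not used in choosing the members. H3K27me3 overlapped 5, 3 and 3 members in THF replicates 1, 2 and 3 and 5, 7 and 5 in 4-OHT. As shares this is 0.473 ± 0.149% in THF and 0.730 ± 0.149% in 4-OHT (SD, n = 3 each; two-sided exact permutation test p = 0.3, adjusted p = 0.417 over 15 tests). The groups overlap, and with Brg1 taken from any FLAG replicate the difference had the opposite sign (-0.0318 points). Suz12 overlapped 1 member in each THF replicate and 4 in each 4-OHT replicate, 0.129% and 0.515% (n = 2 each; exact permutation p = 0.333, adjusted p = 0.417). Tests of 3 samples against 3 cannot go below 0.1 and tests of 2 against 2 cannot go below 0.333, so none here could reach 0.05. No lost bound enhancer was overlapped in any of these lists (0 of 282, upper bound of the exact interval 1.30%). In kept unbound enhancers the H3K27me3 shares were 0.293, 0.281 and 0.258% in THF and 0.129, 0.199 and 0.187% in 4-OHT, and the Suz12 shares were 0.141 and 0.0937% in THF and 0.129 and 0.305% in 4-OHT. Over all distal enhancers H3K27me3 was at 0.259, 0.208 and 0.201% in THF and 0.144, 0.230 and 0.216% in 4-OHT, and Suz12 at 0.0934 and 0.0647% in THF and 0.122 and 0.252% in 4-OHT. The Suz12 share in members minus that in kept unbound enhancers was on average 0.0117 points in THF, where the replicates had opposite signs, and 0.299 points in 4-OHT (exact permutation p = 0.333, n = 2 each, adjusted p = 0.417). For H3K27me3 it was on average 0.195 points in THF and 0.558 points in 4-OHT. That gap differed by 0.363 points between the groups, which did not overlap, at the smallest possible p of 0.1 (exact permutation test, n = 3 each, adjusted p = 0.417).

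In at least 2 replicates of a condition, 6 members were overlapped by H3K27me3 or Suz12, beside 0.266% of all distal enhancers (37 of 13914). Those of *Nrp2*, *Hlx*, *Gata4* and *Nrp1* began 2850, 2875, 3285 and 3635 bp from the nearest TSS, not far past the limit of 2.5 kb. At a limit of 5 kb the difference between the groups was 0 points for H3K27me3 and 0.147 points for Suz12, and the cause was not tested. At the intronic enhancer of *Gata4*, H3K27me3 covered 250, 1050 and 2325 bp in THF and 775, 1550 and 1725 bp in 4-OHT, and Suz12 covered 425 and 975 bp in THF and 950 and 1450 bp in 4-OHT. This enhancer thus had acetylation and both Polycomb readouts in every sample, and the ranges of both Polycomb readouts overlapped between the groups while those of H3K27ac did not. The member near *Hlx*, a homeobox gene of visceral mesoderm, at chr1:186539251-186541150, had H3K27me3 over 0, 250 and 575 bp in THF and 0, 575 and 400 bp in 4-OHT, with 100 bp of Suz12 in 4-OHT replicate 2. The member 12.1 kb downstream of *Fos*, an AP-1 subunit gene, had 400, 850 and 0 bp of H3K27me3 in THF and 200, 0 and 0 bp in 4-OHT. The remaining 3 had little in control cells. Near *Nrp2*, a semaphorin and VEGF co-receptor gene, H3K27me3 was listed in no sample, and Suz12 covered 25 and 525 bp in 4-OHT and none in THF. In an exon of its relative *Nrp1*, H3K27me3 covered 150 bp in THF replicate 3 and 225 and 125 bp in 4-OHT replicates 1 and 2. Near *1700020O03Rik*, 200 and 50 bp of H3K27me3 in 4-OHT replicates 2 and 3 and 75 bp of Suz12 in 4-OHT replicate 1 were listed, and none in THF. Any H3K27me3 list touched 14 of the 776 members and any Suz12 list touched 6. No share over all distal enhancers stands beside these pooled counts, so nothing is read from them. The shares per list are given above.

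Promoters of the nearest genes were not used by the rule, but the H3K27ac lists read there are those that chose the members. The rule needed both THF lists and either 4-OHT list, and the part of this choice in the promoter H3K27ac values was not tested. H3K27ac lay within 2.5 kb of a TSS in 72.7% and 73.4% of the 631 genes in THF and in 71.2% and 71.9% in 4-OHT. The difference of -1.51 points was larger than the spread of either group (SD 0.448 and 0.560, n = 2 each), with an exact permutation p of 0.333 and an adjusted p of 0.417. Over all 22367 protein-coding genes the same lists gave 49.7% and 49.2% in THF and 50.2% and 48.8% in 4-OHT. Genes near members thus more often had an acetylated promoter in every sample. In all 4 H3K27ac lists the promoter was marked for 428 of the 631 genes (67.8%), and in none for 143 (22.7%). For genes nearest to lost bound enhancers these shares were 61.2% and 28.6%, and for those nearest to kept unbound enhancers 61.7% and 28.1%. The gap to genes nearest to lost bound enhancers was 6.20 points in THF and 6.26 points in 4-OHT (exact permutation p = 1, adjusted p = 1, n = 2 each), and that to genes nearest to kept unbound enhancers was 6.30 and 4.85 points (exact permutation p = 0.667, adjusted p = 0.714, n = 2 each).

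H3K27me3 marked the promoters of 27.6, 25.7 and 24.6% of the nearest genes in THF and of 20.4, 23.3 and 20.8% in 4-OHT. The means were 25.9 ± 1.52% and 21.5 ± 1.56% (SD, n = 3 each), a difference of -4.44 points. Every 4-OHT sample was below every THF sample, at the smallest p that 3 against 3 allows (two-sided exact permutation test p = 0.1, adjusted p = 0.417). Among all protein-coding genes the shares were 16.5, 14.1 and 13.3% in THF and 12.1, 13.0 and 11.2% in 4-OHT, and for each replicate number the 4-OHT list held fewer regions, whose part in the difference was not tested. Suz12 went the other way. It marked 11.4% of the nearest promoters in both THF replicates and 15.2% and 19.2% in 4-OHT, a difference of 5.78 points (exact permutation p = 0.333, n = 2 each, adjusted p = 0.417). Over all genes the shares were 6.83 and 6.88% in THF and 8.19 and 10.0% in 4-OHT, and these lists held more regions in 4-OHT, whose part was not tested. For nearest genes of members, Suz12 calls were thus more frequent and H3K27me3 calls less frequent in 4-OHT, and neither difference passed a test.

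Polycomb at promoters was also compared with the other sets. H3K27me3 shares of genes near members were below those near lost bound enhancers (differences of -7.26 points in THF and -6.21 points in 4-OHT), a gap that did not differ between the groups beyond its spread (exact permutation p = 0.6, n = 3 each, adjusted p = 0.692). They were above those near kept unbound enhancers by 6.55 ± 0.672 points in THF and 5.49 ± 0.964 points in 4-OHT (SD, n = 3 each; exact permutation p = 0.3, adjusted p = 0.417). For each replicate number this excess was smaller in 4-OHT, and a test with the number as a block was not run for it. Genes near members thus lie between both sets in each group. For Suz12 the excess over kept unbound was 2.91 points in THF and 4.99 points in 4-OHT, and the gap to lost bound was -6.63 and -7.90 points (exact permutation p = 0.333 for each, n = 2 each, adjusted p = 0.417). Against lost bound enhancers the differences between THF and 4-OHT thus had the opposite sign to those in members alone, for both readouts.

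Few nearest promoters differed between the groups in every replicate. H3K27ac was called in both THF and no 4-OHT replicate at 11 of the 631 genes (1.74%), beside 0.979% of all protein-coding genes, and in the opposite pattern at 3 (0.475%), beside 0.621%. The 11 include the migration genes *Cxcr4*, a chemokine receptor, and *Epha4*, with *Cntnap2*, *Dip2a*, *Gm8214*, *Igf2bp2*, *Mogat1*, *Pcnxl2*, *Rapgef5*, *Rbm20* and *Rpl27a-ps1*. The 3 are *Cpne3*, *Egln3*, a prolyl hydroxylase gene of oxygen sensing, and *Fam20c*, a secretory pathway kinase gene. H3K27me3 was called in all 3 THF and no 4-OHT replicate at 2 genes (0.317%), beside 0.224%, and in the opposite pattern at 0, beside 0.00447%. Those 2 were *Hmga2*, an architectural chromatin protein gene with 3 members, and *Pkdcc*, a kinase gene of skeletal development. Both shares are near those of all genes, so they are not a feature of the set. Suz12 was called in both THF and no 4-OHT replicate at *Pura* alone (0.158%), beside 0.0224%. In both 4-OHT and no THF replicate it was called at 17 genes (2.69%), beside 1.20%. Among the 17 were *T*, the Brachyury gene of the primitive streak, the Wnt ligand gene *Wnt5a* and its receptor gene *Ror2*, *Nrp1*, *Rora*, *Igsf3* and the axon guidance gene *Slit1*. The 2.69% stands beside a Suz12 share that was also higher at these promoters than at all genes in each sample. The genes in this paragraph were picked out after their values were seen.

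At 5 of these genes the enhancers and the promoter can be set side by side, again chosen after their values were seen. The member 4.80 kb upstream of *T*, chr17:8621876-8623100, was covered by H3K27ac over 1175 and 1225 bp in THF and 825 and 1175 bp in 4-OHT. The groups overlapped there, while Suz12 calls at the promoter separated them. *Igsf3* and *Rora* pair a promoter with Suz12 in both 4-OHT samples alone with intronic members among the 5 lowest log2 ratios of members called in both 4-OHT replicates, given above. At *Epha4*, H3K27ac calls were absent from the promoter in both 4-OHT replicates, and its intronic member at chr1:77457126-77461200 had shorter coverage in both. At *Wnt5a* the promoter had H3K27ac in every sample and H3K27me3 in all 3 replicates of each group.

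Most members lay outside genes or in introns. By their centre, 407 (52.4%) were intergenic, 359 (46.3%) intronic and 10 (1.29%) exonic, beside 52.0%, 45.5% and 2.43% of all distal enhancers. These shares are close to each other. The median distance from the nearest TSS was 20.2 kb for members, 26.5 kb for lost bound, 15.1 kb for kept unbound and 18.2 kb for all distal enhancers. At more than 100 kb lay 82 members (10.6%), beside 9.89% of all distal enhancers. Members lay within 12.5 kb of another member in 107 cases (13.8%), beside 10.6% of lost bound, 47.2% of kept unbound and 56.6% of all distal enhancers within their own, larger or smaller, sets. On the X chromosome there were 2 members (0.258%, interval 0.0312 to 0.928%), beside 237 of all distal enhancers (1.70%). Lost bound enhancers had none there (0 of 282, upper bound of the interval 1.30%), and kept unbound enhancers had 171 (2.00%). Both bound sets thus had few enhancers on the X chromosome.

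Members shared nearest genes with the other sets to different degrees. Of the 631 genes, 453 (71.8%) were also nearest to a kept unbound enhancer, which is 9.89% of the 4581 genes of that set. Lost bound enhancers shared 59 genes with members, 9.35% of the 631 and 23.1% of their own 255. A Brg1-bound region also lay at the promoter of 61 of the 631 genes (9.67%, interval 7.48 to 12.2%), beside 9.02% for genes of lost bound enhancers, 5.06% for genes of kept unbound enhancers and 2.07% of all protein-coding genes. Genes with a Brg1-bound enhancer, kept or lost, thus had Brg1 at their promoter more often than the rest. *Gata4*, *Lhx1*, *Fzd7*, *Sp5*, *Lefty2* and *Has2* were among them.

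Base composition of members was close to that of the other sets. The median GC content of the central 500 bp was 47.8%, beside 47.2% in lost bound, 47.6% in kept unbound and 47.4% in all distal enhancers, and the median number of CpG dinucleotides was 6, 6, 6 and 5. In these windows 14 short motifs were searched on both strands by exact match. The T-box letters AGGTGTGA were found in 5.28% of members (interval 3.82 to 7.10%), beside 2.84% of lost bound, 2.65% of kept unbound and 2.97% of all distal enhancers. The forkhead letters TGTTTAC were in 11.1% of members, beside 6.03%, 7.06% and 7.24%. The letters AGATAAG, a site of GATA factors, were in 12.4% of members, beside 10.3%, 7.88% and 8.32%, and the TCF and LEF letters CTTTGAT in 13.9%, beside 12.1%, 8.69% and 9.26%. Zic (CCTGCTG) was in 26.0%, beside 21.6%, 19.7% and 20.3%, and the homeobox letters TAATTA in 17.1%, beside 16.7%, 12.5% and 12.9%. In these windows the share in members was the highest of the sets for these 6, and for each its interval overlapped that of lost bound enhancers. A 500 bp window reaches past the edges of narrow enhancers. The lower quartile of width was 475 bp in lost bound enhancers and 1425 bp in members, and the part of this in the shares was not tested. AP-1 (TGANTCA) was less frequent in members than in kept unbound enhancers, with 18.3% of members, 11.7% of lost bound, 24.6% of kept unbound and 21.2% of all distal enhancers. The E-box CAGGTG was in 25.9% of members, beside 27.3%, 32.2% and 29.6%.

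The other 6 motifs are given in the same order, and no motif share was tested. Octamer letters (ATGCAAAT) were in 4.38% of members, beside 3.55%, 3.78% and 3.84%, and ETS letters (CCGGAAG) in 3.48%, beside 2.48%, 3.72% and 3.48%. TEAD letters (ACATTCC) were in 8.12%, beside 9.57%, 8.62% and 8.29%, and Sp and Klf letters (GGGCGGG) in 8.25%, beside 5.67%, 8.70% and 7.60%. Sox letters (AACAATG) were in 6.83%, beside 8.87%, 6.93% and 7.13%, and Foxh1 letters (AATCCACA) in 4.38%, beside 6.03%, 3.12% and 3.51%, so both were most frequent in lost bound enhancers. E-box and T-box letters share AGGTG and can overlap, and other pairs can share a few end letters. A match describes the letters in a window and does not show that a factor binds. In 200 bp around the centre of the Brg1-bound region, T-box letters were in 1.55% of members, 2.13% of lost bound enhancers and 1.00% of all Brg1-bound regions, forkhead letters in 4.25%, 1.77% and 2.89%, AP-1 letters in 6.96%, 3.90% and 5.52%, and TEAD letters in 4.51%, 1.42% and 3.01%. The GATA letters were in 3.87%, 2.84% and 3.18%, homeobox letters in 6.70%, 4.61% and 6.36%, TCF and LEF letters in 3.61%, 4.26% and 3.77%, and Zic letters in 6.57%, 8.87% and 6.65%. Octamer letters were in 1.42%, 1.77% and 1.67%, Sox letters in 3.61%, 4.61% and 3.18%, Foxh1 letters in 1.16%, 1.42% and 1.05%, and ETS letters in 0.902%, 1.42% and 1.17%. At this position these 4 and the T-box, TCF and LEF, and Zic letters were thus less frequent in members than in lost bound enhancers. Sp and Klf letters were in 2.96%, 1.42% and 3.31%, and the E-box in 12.2%, 10.3% and 12.1%. None of the 14 motifs was present in 418 of these windows (53.9%), beside 172 of 282 in lost bound enhancers (61.0%), and at least 3 were in 17 windows of members.

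The bound positions of some enhancers above are printed, as sequences where Brg1 and acetylation meet and the nearest gene is in a gene list. They are the members near a listed gene among the 10 named above with all 3 FLAG replicates, and the member of *Mesp1* and the farther ones of *Cyp26a1* and *Has2*. Each line gives 200 bases at the centre of the Brg1-bound region from mm9, plus strand, 5′ to 3′, named by the nearest gene, and capitals mark matches to the 14 motifs on either strand. The window near *Eomes* holds no match. TCF and LEF letters (here ATCAAAG, the other strand) stand in the printed windows of *Smad1*, *Has2* and *Cyp26a1*. The nearer windows of *Has2* and *Cyp26a1*, not printed, lack them. The former holds AP-1 letters and the latter Sp and Klf letters. These windows are examples, and no motif share is read from them. The *Mesp1* window holds the T-box letters, the *Sall4* window forkhead (GTAAACA) and Zic (CAGCAGG) letters, and the *Cyp26a1* window the AP-1 letters TGAGTCA. The *Cyp26a1* window also holds forkhead letters, and the *Has2* window has an E-box (CACCTG).
Smad1, chr8:81905851-81906050: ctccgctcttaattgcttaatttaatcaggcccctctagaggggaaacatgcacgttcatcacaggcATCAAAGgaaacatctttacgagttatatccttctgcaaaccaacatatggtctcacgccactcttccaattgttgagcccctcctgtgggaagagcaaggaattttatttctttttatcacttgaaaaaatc
Eomes, chr9:118396638-118396837: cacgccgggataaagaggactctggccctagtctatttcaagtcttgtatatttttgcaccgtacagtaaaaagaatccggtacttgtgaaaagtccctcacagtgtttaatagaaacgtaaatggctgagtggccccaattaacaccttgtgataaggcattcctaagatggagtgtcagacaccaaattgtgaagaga
Sall4, chr2:168666413-168666612: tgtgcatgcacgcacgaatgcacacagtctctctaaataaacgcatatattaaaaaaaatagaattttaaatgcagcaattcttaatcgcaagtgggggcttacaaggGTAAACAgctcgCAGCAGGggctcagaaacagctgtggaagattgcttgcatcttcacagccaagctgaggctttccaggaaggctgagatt
Has2, chr15:56458801-56459000: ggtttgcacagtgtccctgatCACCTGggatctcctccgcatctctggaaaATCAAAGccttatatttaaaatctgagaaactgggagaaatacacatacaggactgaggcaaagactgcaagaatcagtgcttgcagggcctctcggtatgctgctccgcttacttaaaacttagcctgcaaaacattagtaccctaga
Cyp26a1, chr19:37888551-37888750: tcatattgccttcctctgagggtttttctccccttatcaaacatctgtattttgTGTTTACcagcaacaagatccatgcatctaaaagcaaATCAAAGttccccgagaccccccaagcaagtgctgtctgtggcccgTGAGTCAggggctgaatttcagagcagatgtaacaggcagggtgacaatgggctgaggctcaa
Mesp1, chr7:86934526-86934725: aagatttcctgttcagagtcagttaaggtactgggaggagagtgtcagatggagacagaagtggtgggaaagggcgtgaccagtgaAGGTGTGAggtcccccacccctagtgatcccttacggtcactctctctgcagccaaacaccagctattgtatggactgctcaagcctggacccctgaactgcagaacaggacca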

How the data were processed

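ChIP-seq of 28 samples is held in the series, of which 17 (FLAG 3, H3K27ac 2 and 2, H3K27me3 3 and 3, Suz12 2 and 2) have region lists and 11 are inputs, not used here. The authors deposited these lists per replicate as positions (unit: other, start and end of each region, no score). Their processing notes name Bowtie and mm9, and the track lines give a threshold of 1e-06 for FLAG and 1e-12 for the other lists. Regions sharing 1 bp were merged, and TSSs (86842) and genes came from the mm9 annotation on autosomes, X and Y. Covered length is the number of bases of an enhancer inside a list. Shares were compared between THF and 4-OHT by two-sided exact permutation tests over samples, adjusted by Benjamini-Hochberg over 15 tests. Intervals are exact binomial (Clopper-Pearson, 95%).

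Named are up to 4 genes with the most members in each of 14 gene lists, the 5 genes with the most members, the 5 widest members, up to 10 with all 3 FLAG replicates, the 5 lowest and 5 highest ratios called in both 4-OHT replicates, members with H3K27me3 or Suz12 in at least 2 replicates, members near *Kdr*, *Mesp1*, *Cyp26a1*, *Has2* or *Sulf1*, and the 2 regions on each side of each limit. Other gene names complete a count or were chosen after their values were seen. *Sox1* and *Tfcp2l1* were not matched in the annotation. The members and lists were chosen with earlier results of these data known.

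Same-numbered THF and 4-OHT samples of H3K27me3 shared deviations from their group means (correlations 0.932, 0.875 and 0.796 over 19499 merged regions), so the numbers were taken to pair them, although replicates 2 and 3 also correlated across numbers (0.692 and 0.760). Alternatives changed overlap, TSS distance, annotation, replicates needed, widths, joining distance, pseudocount and promoter window, and left out each replicate. The calculations were tested on simulated regions. Python 3.11.15, NumPy 2.4.6 and SciPy 1.17.1 were used.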

Additional observations from a re-analysis of the deposited data

How the results depend on the processing

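Over all alternatives, the number of members lay within 1.5 times 776 except with other demands on FLAG. It was 2095 with Brg1 from any FLAG replicate, 68 with all 3 needed, and 65 to 796 leaving out a replicate. The low values (77 and 65) came without FLAG replicate 1 or 2, where a call in the short list of replicate 3 was required. The kept share was 67.5% with any FLAG replicate, 90.7% with all 3, 62.0% when both 4-OHT replicates had to call, and 64.4 to 91.7% leaving out a replicate. The median of the log2 coverage ratio was -0.53 with all 3 FLAG replicates, -0.57 with both 4-OHT replicates, -0.64 without the narrowest regions of each list, and -0.91 to -0.47 leaving out a replicate. It was below 0 in each setting run.

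The H3K27me3 share of members, 0.258 points higher in 4-OHT, was -0.0318 points with Brg1 from any FLAG replicate and 0 points at a TSS distance of 5 kb. The cause was not tested. In the 55 other settings run for the tested shares the sign was that of the value reported, but sizes moved. Moves of over 1.5 times are given next, and the other settings stayed within that. The H3K27me3 share of members was 0.129 points without the narrowest regions of each list, 0.136 points at 50% overlap and 0.172 points without 4-OHT replicate 2. The Suz12 share of members (0.387 points) was 0.129 points without the narrowest regions, 0.147 points at a TSS distance of 5 kb and 0.215 points with any FLAG replicate. At promoters, H3K27ac (-1.51 points) was at -0.778 points with any FLAG replicate and -0.872 points with a 1 kb window, and Suz12 (5.78 points) at 3.80 points without 4-OHT replicate 2. The smallest p was 0.1 in any setting, so these say nothing of stability. With the replicate number as a block (paired), p was 0.5 and 0.25 for H3K27me3 on members and promoters and 0.5 for Suz12 on both and for H3K27ac at promoters. The differences between sets were not run in this way. In the labels, H3K27ac and Suz12 samples share only a number (correlations 0.418 and 0.444). The paper describes comparing control and treated cultures of the same differentiation, and the labels do not say whether the numbers follow this. Leaving out a replicate of H3K27ac or Suz12 leaves 1 sample in a group and no test. Depth is unknown, so a region called in 1 list and absent from another was not separable from a difference in depth.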
